A study of Rattus norvegicus with 6 samples.

Results

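Lmnb1 encodes lamin B1 and Tmpo encodes thymopoietin, also called lamina-associated polypeptide 2 or LAP2. They were measured by 6 probe sets, 2 for Lmnb1 and 4 for Tmpo, out of 4818 tested. Members were the probe sets annotated to exactly 1 gene with either symbol. Both genes were chosen on measured values of these same arrays, and which values is not recorded. The signals of treated against untreated cells are taken here to be those values. Drug effects are therefore given below as a description and are not tested. Where an adjusted p is printed for a drug effect, also of other genes, it describes the fit and is not read as a test. The arrays carried RNA of cultured rat fibroblasts. The groups were FE8 cells given 5-aza-2'-deoxycytidine (FE8 aza, n = 2), untreated FE8 cells (FE8 control, n = 1), 208F cells given the same drug (208F aza, n = 2) and untreated 208F cells (208F control, n = 1). 208F is an immortal rat fibroblast line, and FE8 is a line of such cells transformed by the HRAS oncogene, so the oncogene is represented by 1 transformed line. Treated cells received 0.3 µM of the drug for 96 h. 5-aza-2'-deoxycytidine is a cytidine analogue that is built into DNA and traps DNA methyltransferases, so that methylation is lost as cells divide. Whether the duplicate arrays stem from separate cultures is not given in the labels. Every error and p below therefore rests only on the spread between the treated duplicates, pooled in part over probe sets, and that spread may be technical.

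The nuclear lamina is a meshwork of intermediate filament proteins, the lamins, that lines the inner nuclear membrane. B-type lamins such as lamin B1 stay attached to the membrane through a farnesyl group at their C terminus, whereas lamin A and C, both from Lmna, are also found in the nuclear interior. Tmpo is spliced into several LAP2 proteins. LAP2 beta spans the inner membrane and binds B-type lamins, while LAP2 alpha has no membrane segment and binds lamin A and the retinoblastoma protein. Loss of lamin B1 is widely used as a marker of senescent fibroblasts, and both genes are more active in dividing cells.

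In the GRCr8 assembly Lmnb1 lies on chromosome 18 (52373939 to 52413284) and Tmpo on chromosome 7 (27529977 to 27554980). Both promoters were found in RefSeq's GRCr8 table and are shown because the drug lowers methylation of CpG sites and because signals of both genes were lower together in treated cells. Each window holds 250 bases before a start site and 50 bases from it, 5′ to 3′ on the gene's own strand. For Lmnb1 this site is the 5′ end of the gene span given above (52373939). For Tmpo it is 27554935, which lies 45 bases inside the 5′ end of the span. The Lmnb1 window is chr18:52373689-52373988 (plus strand) and the Tmpo window is chr7:27554886-27555185 (minus strand). Capitals mark matches, on either strand, to the 5 motifs described next.
Lmnb1: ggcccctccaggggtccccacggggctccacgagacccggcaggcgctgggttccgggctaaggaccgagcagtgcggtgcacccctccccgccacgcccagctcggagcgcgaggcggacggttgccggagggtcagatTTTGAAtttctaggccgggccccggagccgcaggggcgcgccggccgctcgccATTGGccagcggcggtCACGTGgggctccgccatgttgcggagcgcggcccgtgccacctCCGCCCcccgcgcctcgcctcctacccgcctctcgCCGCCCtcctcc
Tmpo: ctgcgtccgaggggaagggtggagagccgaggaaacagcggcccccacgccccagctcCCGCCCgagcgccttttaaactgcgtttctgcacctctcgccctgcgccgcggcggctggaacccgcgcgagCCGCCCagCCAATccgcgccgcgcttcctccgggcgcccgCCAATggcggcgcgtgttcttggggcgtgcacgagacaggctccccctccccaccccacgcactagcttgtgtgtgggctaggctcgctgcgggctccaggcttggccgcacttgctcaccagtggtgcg

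The motifs searched were the CCAAT box (CCAAT), the cell cycle homology element CHR (TTTGAA), an E-box (CACGTG), the GC box (GGGCGG) and an E2F site (TTTCCCGC, TTTCGCGC, TTTGCCGC or TTTGGCGC). No 2 matches overlapped. Lmnb1 held 1 CCAAT box on the opposite strand at -57, 1 CHR element at -110, 1 E-box at -41 and 2 GC boxes on the opposite strand at 4 and 39, counted from that window's start site. Tmpo held 2 CCAAT boxes at -112 and -80 and 2 GC boxes on the opposite strand at -192 and -120. So the CCAAT box and the GC box were the motifs that both windows shared, and the E2F site was in neither. Among all 33469 promoters of this length in the table, 37.5% held a CCAAT box, 33.1% a GC box, 18.3% the CHR element, 6.42% the E-box and 2.14% the E2F site. CpG dinucleotides numbered 38 in the Lmnb1 window and 35 in the Tmpo window, against a median of 7 over all promoters, which placed them above 95.8% and 93.9% of promoters. Methylation of these windows was not analysed here, and a motif match describes letters, not a bound site.

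The deposited values are MAS5 signals on a linear scale, and 10% of all tested values lie at or below a signal of about 64. Median signals lay between 354 and 422 over the 6 arrays. The settings files put the pair of untreated arrays in 1 session and chip lot. The treated arrays came from other sessions, 208F aza replicate 1 from another session and lot than the other 3, so the drug cannot be told apart from the session in any drug effect below. Ratios of 5' to 3' signal for beta-actin, a sign of RNA integrity, were 0.405 and 0.384 in FE8 aza against 0.351 in FE8 control, and 0.529 and 0.456 in 208F aza against 0.824 in 208F control. The same ratio for Gapdh was 1.126 and 1.073 in FE8 aza against 0.691 in FE8 control, and 1.132 and 1.010 in 208F aza against 0.916 in 208F control. With the drug, the Gapdh ratio was thus higher in both lines, while the actin ratio was higher in FE8 and lower in 208F. Of 12 fibroblast markers 11 were measured, among them vimentin (Vim) with signals between 7118 and 18849. Some others were far lower in FE8. The collagen genes Col1a1 and Col3a1 read 10934 and 3385 in 208F control against 166 and 244 in FE8 control. Fibronectin (Fn1) read 13153 in 208F control against 1771 in FE8 control. Of the 11 markers, 7 were lower and 4 higher in FE8 control than in 208F control. With the drug, 8 were lower and 3 higher in FE8 aza than in 208F aza. The summed signal of the 11 markers was 68037 and 66261 in FE8 aza against 92867 in FE8 control. In 208F aza it was 126380 and 93872, against 128187 in 208F control. The summed signal of 3 of 9 epithelial markers, mostly the keratin Krt8, was 4345 and 4418 in FE8 aza against 145 in FE8 control, and 3458 and 3039 in 208F aza against 168 in 208F control. Of 7 muscle markers 4 were measured, and their sum was 1547 and 1495 in FE8 aza against 608 in FE8 control, and 3397 and 3463 in 208F aza against 946 in 208F control. The only endothelial marker measured, Kdr, lay between 2 and 84, and the only immune marker measured, Cd14, between 160 and 446. The part of these markers in the results was not tested, and a lower signal per cell cannot be told apart from fewer cells that carry the RNA. Hras itself was not among the tested genes.

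Lamin B1 signal was lower with the drug in both lines. The brighter Lmnb1 probe set, U72353_at, read 82 and 111 in FE8 aza against 311 in FE8 control, and 136 and 244 in 208F aza against 492 in 208F control. All 4 treated arrays lay below both untreated arrays. The mean treated signal was 31.0% of the control in FE8 and 38.6% in 208F. On the log2(signal + 64) scale the drug effect was -1.23 ± 0.41 in FE8 and -1.16 ± 0.41 in 208F (± is the standard error of the limma fit, as in all values below). Since treated signals came close to the added 64, these log2 values understate the ratio of signals.

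The other Lmnb1 probe set, rc_AA957201_s_at, was near the floor of the data. It read 18 and 28 in FE8 aza against 18 in FE8 control, and 81 and 22 in 208F aza against 113 in 208F control. On 4 of the 6 arrays it lay below 64, the exceptions being the 208F control and 208F aza replicate 1. Its drug effect was 0.08 ± 0.43 in FE8 and -0.66 ± 0.43 in 208F. The suffix _s marks a probe set that can be shared by several transcripts.

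**Figure D1:**
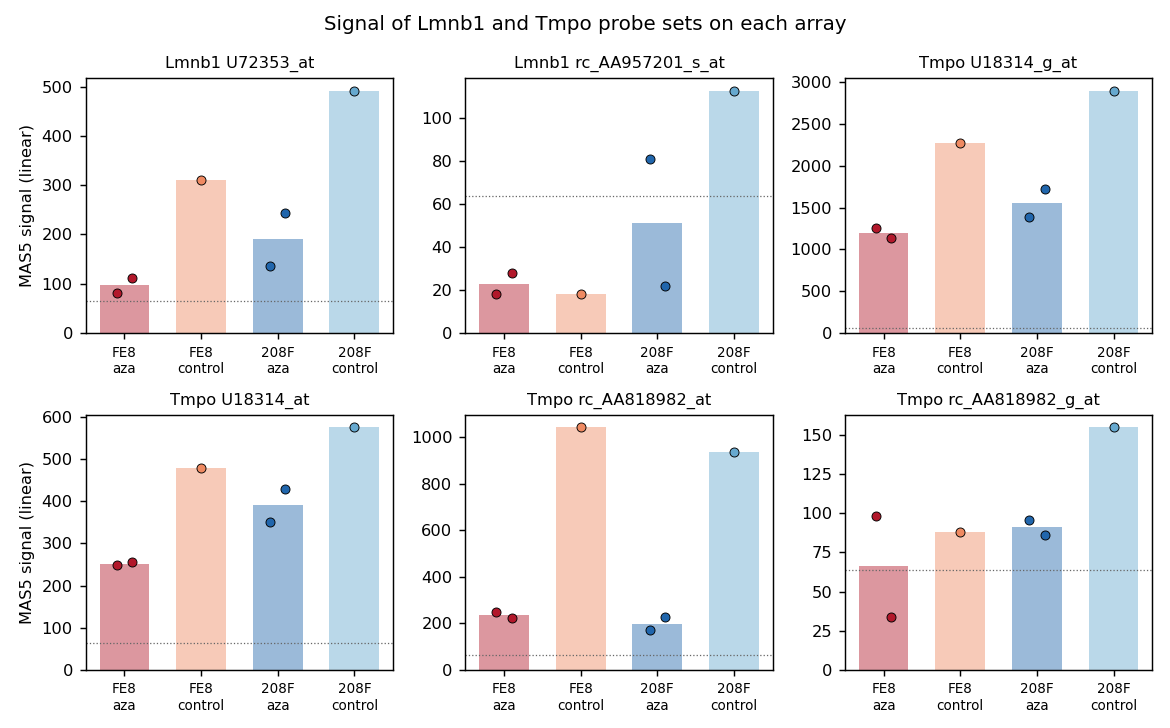
MAS5 signal on a linear scale for each of the 6 probe sets, with points for single arrays, bars for group means and a dotted line at 64, the value added before taking logs. U72353_at, U18314_g_at, U18314_at and rc_AA818982_at have all 4 treated arrays below both untreated arrays, and the remaining 2 probe sets lie close to the dotted line.

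Tmpo was represented by 2 sequences, each with a probe set ending in _at and another ending in _g_at, so probe sets of the same sequence are not separate measurements of the gene. Which LAP2 splice forms each detects is not given in the sources used here. The brightest, U18314_g_at, read 1252 and 1136 in FE8 aza against 2273 in FE8 control, and 1390 and 1719 in 208F aza against 2900 in 208F control. Treated means were 52.5% of the control in FE8 and 53.6% in 208F. Its drug effects were -0.90 ± 0.27 in FE8 and -0.88 ± 0.27 in 208F, and treated and untreated arrays did not overlap.

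The partner U18314_at read 249 and 255 in FE8 aza against 480 in FE8 control, and 352 and 430 in 208F aza against 576 in 208F control. The order of the groups was the same as for U18314_g_at, with effects of -0.78 ± 0.34 in FE8 and -0.50 ± 0.34 in 208F.

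The widest contrast among the 6 probe sets came from rc_AA818982_at, of the second Tmpo sequence. It read 249 and 222 in FE8 aza against 1042 in FE8 control, and 170 and 225 in 208F aza against 937 in 208F control. Treated means were 22.6% of the control in FE8 and 21.1% in 208F, and the drug effects were -1.89 ± 0.34 in FE8 and -1.94 ± 0.34 in 208F. Counted from the lowest drug effect, this probe set ranked 36th of 4818 in FE8 and 14th in 208F, as a description only. Its partner rc_AA818982_g_at was dim, with 98 and 34 in FE8 aza against 88 in FE8 control, and 96 and 86 in 208F aza against 155 in 208F control. The 2 FE8 aza values lay on either side of the FE8 control, and the effects were -0.27 ± 0.43 in FE8 and -0.50 ± 0.43 in 208F.

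The Tmpo probe sets differed in how far they were lowered, and the pair of the second sequence did not agree, rc_AA818982_at having the largest effects of the 4 in size and rc_AA818982_g_at the smallest in FE8. Within each array, rc_AA818982_at minus U18314_g_at on the log2(signal + 64) scale was -2.072 and -2.069 in FE8 aza against -1.079 in FE8 control, and -2.635 and -2.625 in 208F aza against -1.566 in 208F control. The treated duplicates lay close together and well apart from their control in either line. This comparison was chosen after the values were seen and carries no test. Probes differ in how their signal follows RNA amount, and the part of that in this difference was not tested.

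In each line 1 of the 6 probe sets, rc_AA818982_at, passed an adjusted p of 0.05 in limma for the drug effect, in the lower direction. Of all probe sets 3.09% passed as lower and 5.06% as higher in FE8, and 1.6% as lower and 3.59% as higher in 208F. Nothing is read from this count, since these contrasts were known when the genes were chosen. The fit shares 1 estimate of spread over all groups. Leaving out an array can therefore change calls in comparisons that do not use it, but not their log2 differences. The count was 0 of 6 in both lines without either FE8 aza replicate. It was 3 of 6 in FE8 without either 208F aza replicate, and in 208F it was 1 of 6 without 208F aza replicate 1 and 3 of 6 without 208F aza replicate 2. In 4 of 6 probe sets all treated arrays lay below both untreated arrays, a pattern seen in 12.5% of all probe sets. Taken by line, both FE8 aza arrays lay below FE8 control in 4 of 6 (34.1% of all probe sets). Both 208F aza arrays lay below 208F control in 6 of 6 (29.9% of all probe sets). These counts of arrays rest on the same contrasts, so nothing is read from them either. Over all tested probe sets the median drug effect was 0.08 in FE8 and 0.11 in 208F, and 44.3% of effects in FE8 and 41.3% in 208F were below 0. Quantile normalization moved these medians to -0.04 in FE8 and -0.03 in 208F.

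The lines were compared next. This contrast shares arrays with the drug effects, and its tests assume that line differences played no part in the choice of the genes, which is not known. Without the drug, none of the 6 probe sets differed between FE8 control and 208F control (n = 1 each) in limma at an adjusted p of 0.05, where 5.92% of all probe sets passed, 3.09% as higher and 2.82% as lower in FE8. At an unadjusted p of 0.05, 1 of 6 passed, against 15.7% of all probe sets, and it was the dim rc_AA957201_s_at. U72353_at differed by -0.57 ± 0.47 (adjusted p = 0.72 in limma, with a 95% interval from -1.60 to 0.46). U18314_g_at differed by -0.34 ± 0.32 (adjusted p = 0.77, interval -1.04 to 0.35) and rc_AA818982_at by 0.14 ± 0.39 (adjusted p = 0.96, interval -0.72 to 1.01). The remaining values were -0.23 ± 0.39 for U18314_at, -0.53 ± 0.49 for rc_AA818982_g_at and -1.11 ± 0.50 for rc_AA957201_s_at (adjusted p = 0.31).

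With the drug in both lines, where each group had 2 arrays, again none of the 6 differed between FE8 aza and 208F aza by limma, against 7.08% of all probe sets (3.42% higher and 3.65% lower in FE8 aza), and 0 of 6 passed at an unadjusted p of 0.05, against 17.1%. U72353_at was at -0.63 ± 0.33 (adjusted p = 0.39, interval -1.36 to 0.09), and both FE8 aza signals lay below both 208F aza signals. The same was true of U18314_g_at at -0.36 ± 0.22 (adjusted p = 0.52, interval -0.85 to 0.13) and of U18314_at at -0.52 ± 0.27 (adjusted p = 0.40, interval -1.12 to 0.08). So 3 of 6 probe sets had no overlap with FE8 lower, a pattern that 21.5% of all probe sets showed. U18314_g_at and U18314_at are of the same sequence and are not separate measurements in this count. For rc_AA818982_at the treated groups overlapped and the difference was 0.20 ± 0.28 (adjusted p = 0.87, interval -0.41 to 0.82). The dim rc_AA957201_s_at and rc_AA818982_g_at were at -0.36 ± 0.35 and -0.30 ± 0.35. Within a single chip lot, without 208F aza replicate 1, the values were -0.95 for U72353_at, -0.50 for U18314_g_at and -0.64 for U18314_at, and none passed.

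**Figure D2:**
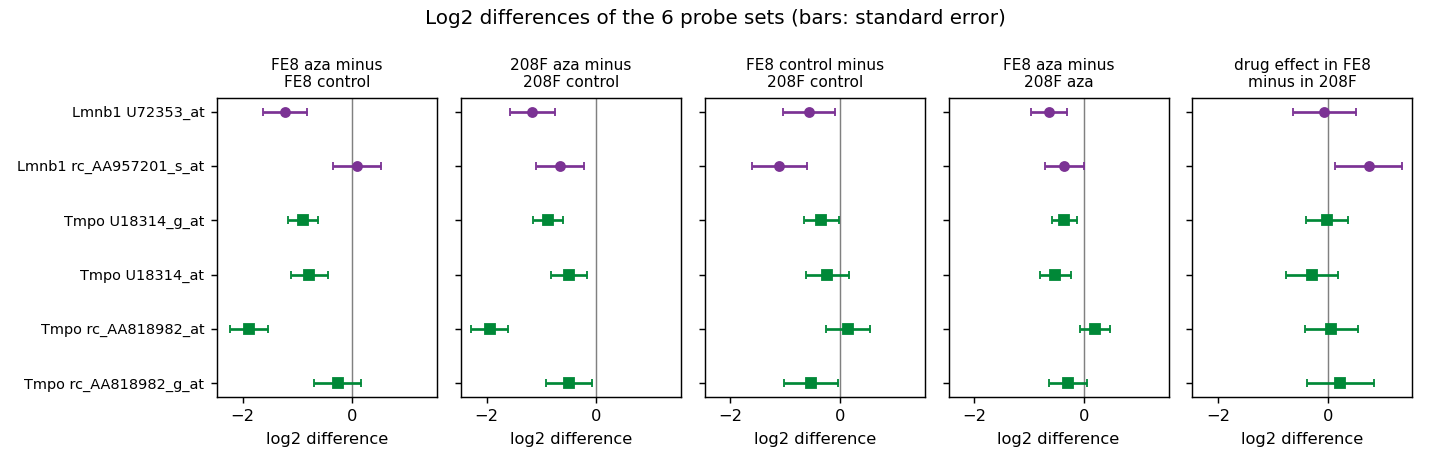
Log2 differences of the 6 probe sets (points, with standard errors as bars) for the drug effect in each line, the line difference without and with the drug, and the difference between the drug effects, all on the log2(signal + 64) scale. Drug effects of the 4 brighter probe sets lie left of 0 in both lines, and the differences between the drug effects of these 4 lie between -0.29 and 0.06.

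The drug effects of the lines were close for the brighter probe sets, and no difference between them passed in limma (adjusted p = 0.999 for all 6, where 0.0623% of all probe sets passed, 0.0208% as higher and 0.0415% as lower, and 0 of 6 at an unadjusted p of 0.05, against 7.56%). The effect in FE8 minus that in 208F was -0.07 ± 0.57 for U72353_at, -0.01 ± 0.39 for U18314_g_at, -0.29 ± 0.48 for U18314_at and 0.06 ± 0.48 for rc_AA818982_at. The intervals were wide, from -1.33 to 1.20 for U72353_at and from -0.87 to 0.84 for U18314_g_at, so this test does not show that the lines responded alike.

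By level, the groups stood in the same order for U72353_at, U18314_g_at and U18314_at, of which the U18314 probe sets share a sequence. The 208F control was highest, then FE8 control, 208F aza and FE8 aza. For U72353_at the group levels were 96.5 ± 20.5 in FE8 aza (SD, n = 2) and 311 in FE8 control, and 190.0 ± 76.4 in 208F aza (SD, n = 2) and 492 in 208F control. For U18314_g_at they were 1194 ± 82.0 in FE8 aza and 2273 in FE8 control, and 1555 ± 233 in 208F aza and 2900 in 208F control. Neighbours within the treated pair and within the untreated pair did not differ in the tests above. For rc_AA818982_at the order was FE8 control (1042), 208F control (937), FE8 aza (235.5 ± 19.1) and 208F aza (197.5 ± 38.9), and here the pair of lines could not be separated with or without the drug.

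The closest profiles to those of Lmnb1 and Tmpo were sought among 2804 probe sets of 2089 other genes with a median signal of at least 200. Likeness was the root mean square difference between log2(signal + 64) values, centred on each probe set's mean over the 6 arrays, and it is a description, since both untreated arrays share a session. For Lmnb1 U72353_at the closest gene was Tubb5, a beta-tubulin, at 0.13, with signals of 366 and 498 in FE8 aza against 1036 in FE8 control, and 586 and 1022 in 208F aza against 2024 in 208F control. Tubb5 repeated the gap between the 208F aza duplicates that Lmnb1 showed. Of the genes named next, Mrpl23 (567 and 813) and Tns3 (451 and 695) also had a gap. It was smaller in Ddt (536 and 615), Slc25a1 (795 and 941) and Top2a (2902 and 2935). The lower array, 208F aza replicate 1, came from another session and lot, and the part of that in the gap was not tested. The added 64 understates the Lmnb1 change more than that of brighter genes, so these distances hold for this scale only. Next came Mrpl23, a mitochondrial ribosomal protein, and Ddt, D-dopachrome tautomerase (both 0.17), Tns3, a tensin of focal adhesions (0.20), Top2a, the topoisomerase that untangles replicated DNA (0.20), and Slc25a1, the mitochondrial citrate carrier (0.21). Tmpo's U18314_g_at stood at 0.25 from Lmnb1, with 14 of 2807 compared probe sets closer, while rc_AA818982_at stood at 0.54, with 442 closer.

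For Tmpo U18314_g_at the closest were malic enzyme Me1 (0.06), the sideroflexin Sfxn3 (0.10), the small GTPase Rab11b (0.11), the mitotic phosphatase Cdc25b (0.13), the aldehyde dehydrogenase Aldh7a1 (0.13) and Nutf2 (0.13), which carries Ran into the nucleus. Cdc25b read 286 and 276 in FE8 aza against 547 in FE8 control, and 419 and 391 in 208F aza against 731 in 208F control. When rc_AA818982_at stood for Tmpo, no profile was as close and the names were others: Cenpw, a centromere protein (0.28), Cdk1, the kinase that starts mitosis (0.33), Rnaseh2a, a subunit that removes RNA from DNA (0.34), Rpa3, a subunit of the single-strand DNA binding protein RPA (0.34), Fam111a (0.35) and Cyp51, a sterol synthesis enzyme (0.35). Cenpw read 212 and 198 in FE8 aza against 860 in FE8 control, and 237 and 281 in 208F aza against 692 in 208F control.

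**Figure D3:**
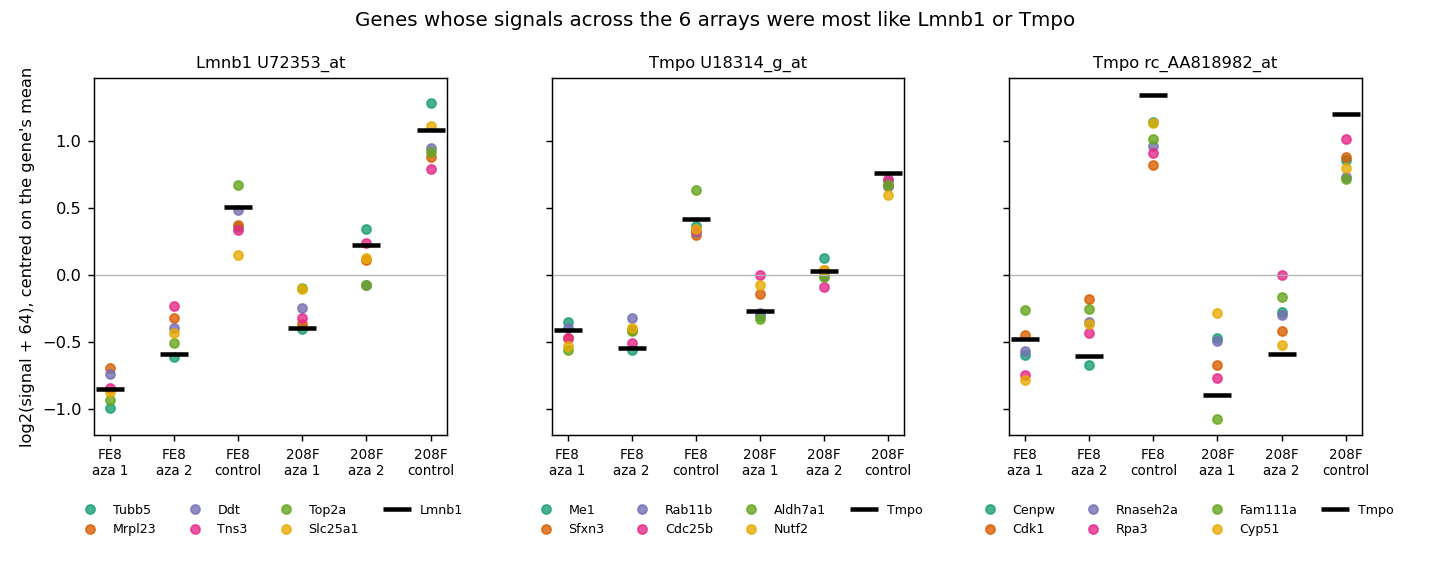
Centred log2(signal + 64) values on the 6 arrays for Lmnb1 and 2 Tmpo probe sets (black bars) and for the 6 genes closest to each (coloured points). Points lie nearest the bars for U18314_g_at, where the closest gene differs by 0.06, and farthest for rc_AA818982_at, where it differs by 0.28.

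Other genes of the lamina and inner nuclear membrane were measured next to Lmnb1 and Tmpo. The gene lists given from here on were chosen with earlier results of these data known. Shares and calls of drug effects in them are therefore descriptions. Of 22 listed genes 8 were measured, Lmnb1 and Tmpo included, each taken by its brightest probe set. In FE8 none of the 8 passed in limma (8.16% of all probe sets passed), and the median drug effect of the 6 genes other than Lmnb1 and Tmpo was -0.20, against 0.08 over all probe sets. In 208F 1 fell, Lmna, and 7 did not pass (5.19% of all probe sets passed), and the median of the other 6 was 0.16, against 0.11 over all probe sets. Of these 6 genes, 3 lay below 0 in FE8 and 2 in 208F, and only Lemd2 changed side between the lines. Lmna, which encodes lamin A and C, read 1863 and 2042 in FE8 aza against 3180 in FE8 control, and 1151 and 1342 in 208F aza against 3733 in 208F control. Its effect was -0.69 ± 0.27 in FE8 and -1.54 ± 0.27 in 208F (adjusted p = 0.0068 in limma), and the 208F call was lost without either FE8 aza replicate, with an adjusted p of up to 0.076. The difference between its drug effects was 0.85 ± 0.38 (adjusted p = 0.62 in limma).

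Emerin (Emd), a membrane protein that binds lamin A, read 471 and 356 in FE8 aza against 700 in FE8 control, and 613 and 610 in 208F aza against 997 in 208F control by its brighter probe set, with effects of -0.69 in FE8 and -0.65 in 208F. Its dimmer probe set stood at -0.48 in FE8 and 0.03 in 208F. Not all inner membrane genes were lower. Tor1aip1, which encodes LAP1, was at 0.76 in FE8 and 0.55 in 208F, Tor1aip2 at 0.44 and 0.24, the lamin B receptor Lbr at 0.05 and 0.17, and Lemd2 at -0.45 and 0.15. By their brightest probe sets, Lmnb1, Lmna, Tmpo and Emd lay below 0 and Tor1aip1 and Tor1aip2 above it in both lines, also after quantile normalization and median centring. Lbr turned to -0.13 in FE8 and -0.11 in 208F after quantile normalization, and to -0.07 in FE8 after median centring. Of the 6 genes other than Lmnb1 and Tmpo, only Lmna passed in limma, in 208F. For Tmpo, the dimmer rc_AA818982_at had passed in both lines, as given above. In the line comparisons 0 of 8 passed either way, the medians of the other 6 being 0.09 without the drug and 0.30 with it, and Lmna with the drug was at 0.62 ± 0.22 (adjusted p = 0.14 in limma).

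**Figure D4:**
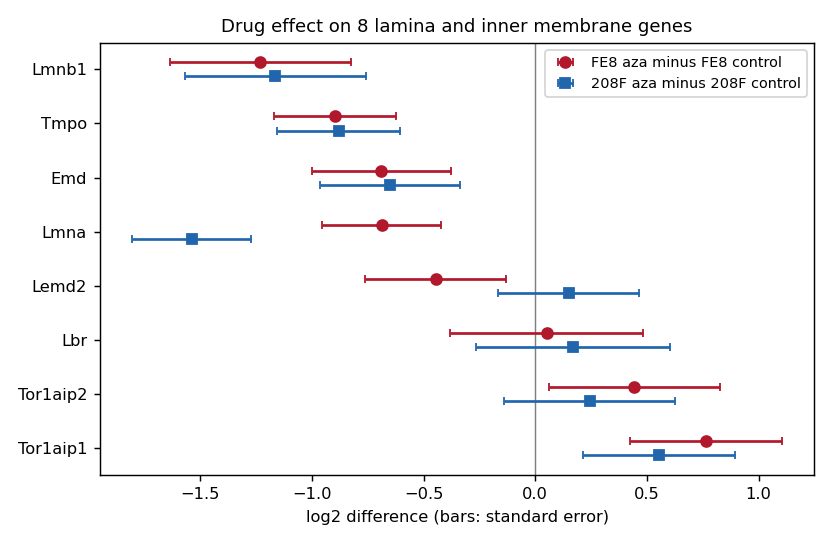
Drug effect in FE8 (circles) and in 208F (squares) for 8 measured genes of the lamina and inner nuclear membrane, as log2 differences with standard errors. Lmnb1, Tmpo, Emd and Lmna lie left of 0 in both lines and Tor1aip1 and Tor1aip2 right of it, with Lmna farther left in 208F (-1.54) than in FE8 (-0.69).

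Of 6 listed genes for enzymes that add farnesyl or related groups to C termini or process such ends, 3 were measured. None passed in limma in either line. Fntb, the beta subunit of farnesyltransferase, was at -0.42 ± 0.34 in FE8 and -0.80 ± 0.34 in 208F. The alpha subunit Fnta was at 0.18 in FE8 and 0.26 in 208F, and Pggt1b, a subunit of the enzyme that adds the longer geranylgeranyl group, at 0.37 in FE8 and 0.03 in 208F. Of 45 nuclear pore and transport genes 14 were measured and none passed in either line, with medians of -0.03 in FE8 and 0.09 in 208F. Nutf2 was at -0.80 ± 0.27 in FE8 and -0.62 ± 0.27 in 208F, the nucleoporin Nup98 at 0.49 in FE8 and 0.69 in 208F, and the importin Ipo7 at -0.72 in FE8 and 0.12 in 208F.

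The list of kinases and phosphatases of lamina disassembly, with their partner proteins, had 12 measured genes. Of these, 2 fell in FE8 (3.09% of all probe sets did) and 1 fell in 208F (1.6% of all probe sets did). The list's medians were -0.11 in FE8 and -0.21 in 208F, against 0.08 and 0.11 over all probe sets. Cdk1, which phosphorylates lamins and LAP2 when the envelope breaks down, fell in both lines, with -1.14 in FE8 (adjusted p = 0.032 in limma) and -1.42 in 208F (adjusted p = 0.013). Its partner cyclin B1 (Ccnb1) fell in FE8 (-0.996, adjusted p = 0.046) and stood at -0.75 in 208F. These calls were lost without either FE8 aza replicate, and both FE8 calls also after quantile normalization and without the intensity trend. Aurkb, a mitotic kinase, stood at -1.23 in FE8 and -1.41 in 208F without passing.

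Of 16 measured replication genes, 3 fell in FE8 and 3 in 208F, where 3.09% of all probe sets fell in FE8 and 1.6% in 208F. The list's medians were -0.47 in FE8 and -0.63 in 208F, against 0.08 and 0.11 over all probe sets. Those in FE8 were Top2a (-1.39, adjusted p = 0.0114 in limma), the nucleotide hydrolase Dut (-1.04, adjusted p = 0.0354) and the helicase subunit Mcm7 (-1.02, adjusted p = 0.0388). Those in 208F were the DNA polymerase subunit Pold1 (-1.99, adjusted p = 0.0275), Mcm7 (-1.45, adjusted p = 0.00894) and Mcm6 (-1.20, adjusted p = 0.0335). All 6 of these calls were lost without either FE8 aza replicate. Those of Dut, of Mcm7 in FE8 and of Mcm6 were also lost after quantile normalization and without the trend, and that of Pold1 after quantile normalization.

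Of 7 measured growth arrest and senescence genes, 3 rose in FE8 and 4 rose in 208F, where 5.06% of all probe sets rose in FE8 and 3.59% in 208F. The list's medians were 0.32 in FE8 and 1.31 in 208F, against 0.08 and 0.11 over all probe sets. All 7 lay above 0 in 208F, while in FE8 5 lay above and 2 below. The lower of these 2 was Il1a, at -1.10 ± 0.45 without passing. It read 178 and 173 in FE8 aza against 450 in FE8 control. The cyclin-dependent kinase inhibitor Cdkn1a read 1617 and 2172 in FE8 aza against 196 in FE8 control, and 2685 and 1929 in 208F aza against 155 in 208F control, a rise of 2.90 ± 0.32 in FE8 and 3.42 ± 0.32 in 208F. The p53 ligase Mdm2 rose by 1.30 in FE8 and 1.31 in 208F, and the chemokine Ccl2 by 2.57 in FE8 and 3.03 in 208F. Gadd45a rose by 1.70 in 208F and stood at 0.17 in FE8, a difference that was not called (adjusted p = 0.21 in limma). The calls of Cdkn1a in both lines and of Ccl2 in 208F held without each treated replicate in turn, while those of Mdm2, of Gadd45a and of Ccl2 in FE8 were lost without either FE8 aza replicate, and that of Mdm2 in 208F also without the trend. Between lines, Ccl2 was higher in FE8 control than in 208F control (2.96, adjusted p = 0.00418 in limma) and in FE8 aza than in 208F aza (2.498, adjusted p = 0.000884), the second call being lost without FE8 aza replicate 2. The interleukin Il1a was higher in FE8 control than in 208F control (2.35, adjusted p = 0.0221), a call lost without either FE8 aza replicate. The list of chromatin genes and of genes for retinoblastoma proteins and their partners gave no call in 8 measured genes. Largest in size were Hmga1, a chromatin architectural protein, at 0.97 ± 0.29 and Rb1 at 0.79 ± 0.43 in FE8, and Rbl2, a relative of the retinoblastoma protein, at 0.81 ± 0.34 and the histone H2az1 at -0.61 ± 0.39 in 208F. Among 5 measured caspase and BCL2 family genes none passed, and Casp6, the caspase that cleaves lamin A, was at 0.85 ± 0.39 in FE8 and 0.52 ± 0.39 in 208F. Bcl2l1, a survival protein, was at 0.87 in FE8 and 0.05 in 208F, and Casp1, a caspase of inflammation, at 0.58 in FE8 and 0.74 in 208F.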

How the data were processed

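The values were made by the authors. The deposited intensities are linear whole numbers per probe set, and MAS5 is named in the submitters' processing notes, with no settings. The deposited table holds 4847 probe sets of chip type RG_U34A, per the file headers, a subset chosen by a filter not stated in the sources used here. Of these 29 are control probe sets and 4818 were tested. Probe sets were named through the platform annotation and a table of rat genes (GRCr8, used for names and for the coordinates of Lmnb1 and Tmpo), with 3956 annotated to 1 gene, 207 to several and 655 to none.

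Signals were transformed as log2(signal + 64) with no further normalization. limma 3.58.1 in R 4.3.3 (lmFit, eBayes with an intensity trend) was fitted to 4 group means, with 2 residual and 9.02 prior degrees of freedom, which assumes that single untreated arrays have the spread of the treated pairs. P-values were 2-sided and adjusted by Benjamini-Hochberg over 4818 probe sets in each of 5 comparisons. Precision is limited by the number of arrays. The fit was tested on simulated data. Run lot and session were read from the settings files, and a second scan record of FE8 aza replicate 2 came with no further values here. The members and gene lists were chosen with earlier results of these data known. Named were every member, up to 4 called genes per list, comparison and direction (or the 2 largest changes where none was called), and the 6 closest profiles. Aurkb, the other lamina genes and the Tmpo within-array difference were added after their values were seen. Alternatives covered the pseudocount, normalization, trend, low signals, replicates and the replicate block.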

Additional observations from a re-analysis of the deposited data

Results flagged for a closer look

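Lemd2, an inner nuclear membrane protein with a LEM domain, was the gene named above whose treated arrays all moved one way in FE8 and the other way in 208F. It read 487 and 667 in FE8 aza against 801 in FE8 control, and 646 and 646 in 208F aza against 576 in 208F control. The drug effect in FE8 minus that in 208F was -0.60, which did not pass in limma (adjusted p = 0.98).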

How the results depend on the processing

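The drug effects of U72353_at, U18314_g_at, U18314_at and rc_AA818982_at stayed below 0 in both lines under all 10 alternatives. U72353_at ranged from -1.55 to -0.69 in FE8 and from -1.48 to -0.76 in 208F, and rc_AA818982_at from -2.08 to -1.40 in FE8 and from -2.17 to -1.40 in 208F. For both of these the values nearest 0 came with the pseudocount raised 4 times. No line difference or difference between drug effects of the 6 probe sets passed under any alternative tried. Signs near 0 turned for differences between drug effects: with the raised pseudocount to 0.0697 for U72353_at, 0.00402 for U18314_g_at and -0.00349 for rc_AA818982_at, and with median centring to 0.0033 for U18314_g_at. Leaving out single treated replicates gave -0.38 to 0.24 for U72353_at, -0.16 to 0.13 for U18314_g_at, -0.094 to 0.21 for rc_AA818982_at and -0.13 to 0.59 for rc_AA818982_g_at, and for the treated line difference -0.74 to 0.014 for rc_AA957201_s_at and -0.66 to 0.064 for rc_AA818982_g_at. In FE8 the drug effect of the dim rc_AA818982_g_at was 0.09 without FE8 aza replicate 2, and that of rc_AA957201_s_at was -0.21 after quantile normalization; the cause was not tested.

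Counts over all probe sets moved with the replicates kept. They ran from 109 to 541 for the untreated lines, 96 to 530 for the treated lines, 0 to 206 for the difference between drug effects, 76 to 783 for the drug in FE8 and 75 to 663 for the drug in 208F. Quantile normalization gave 258 calls for the drug in FE8 and 165 in 208F. The 3 calls for the difference between drug effects became 10 with the pseudocount lowered to 16 and 6 with it raised, 9 with median centring, and 0 with quantile normalization, without the trend or with the filter at a mean signal of 200 (316, 332 and 312 at an unadjusted p of 0.05 in limma). That filter removed both dim probe sets. The replicate block gave 325 calls against 341 for the treated lines and 0 against 3 for the difference between drug effects (499 at an unadjusted p of 0.05 in limma), and called none of the 6 in either. Replicate 1 minus replicate 2 correlated between the lines with r = 0.32 over 4818 probe sets, and with 2 pairs the numbers were not taken as pairing the samples.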
